A study of Homo sapiens with 6 samples.

Results

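The JAK kinases, STAT transcription factors and SOCS inhibitors that carry cytokine signals were read at 9 genes, namely JAK1, JAK2, JAK3, STAT5B, STAT5A, STAT3, SOCS1, SOCS3 and CISH. They were chosen by name, and their H3K27ac peaks were taken as all peaks over the annotated gene body or within 25 kb of it (hg38), out of 19974 protein-coding genes. The 9 windows formed 7 loci of 953.8 kb in all, because STAT5B, STAT5A and STAT3 are neighbours on chromosome 17 and were merged, so that their shared peaks counted once. These loci held 63 of 35154 peaks in 6T-CEM, 22 of 16159 in Jurkat replicate 1 and 53 of 32097 in Jurkat replicate 2, or 138 of 83410 over the 3 lists.

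The series profiled histone H3 acetylated at lysine 27 (H3K27ac), which marks active promoters and enhancers, in a pair of human cell lines from T-lineage acute lymphoblastic leukaemia (T-ALL). 6T-CEM has 1 H3K27ac library and Jurkat has 2, and the 3 IgG control samples were not analysed here. The design text speaks of CUT&Tag and of cells exposed to an agent at 10 nM for 24 h, and the title names the BET inhibitor GNE-987. No sample label states a treatment, genotype or passage, so each library may come from treated or untreated cells. The Jurkat lists name their peaks with different prefixes (Jur and Jur-NE), which no label explains, and nothing says whether those libraries came from separate cultures. With a single 6T-CEM library there was no test between the lines. The ratio of covered bases in Jurkat replicate 1 over replicate 2 is given for each locus and for some other genes. In bulk libraries, more marked cells and more of the mark per cell cannot be told apart.

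Cytokine receptors without an enzyme of their own bind JAK kinases, which phosphorylate the receptor and then STAT proteins. Phosphorylated STATs pair up, enter the nucleus and bind DNA, often at the palindrome TTCNNNGAA. Among their targets are SOCS1, SOCS3 and CISH, whose products bind receptors or JAKs and damp the signal. In developing T cells the interleukin-7 receptor signals through JAK1 and JAK3 to STAT5, and activating mutations along this route are known in T-ALL.

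The lists differ in length, which bears on every count: peaks covered 34.3 Mb in 6T-CEM, 16.2 Mb in Jurkat replicate 1 and 27.6 Mb in Jurkat replicate 2, and no read counts are given, so depth is unknown. All 8 T-cell marker genes (CD3D, CD3E, CD3G, CD247, CD2, CD5, CD7 and LCK) had covered bases in every library, with sums of 96454 bp in 6T-CEM, 84148 bp in Jurkat replicate 1 and 114950 bp in Jurkat replicate 2. The B-cell genes PAX5, EBF1 and MS4A1 were at 0 in all lists. Of 4 myeloid markers, 4 had bases in 6T-CEM, against 2 in Jurkat replicate 1 and 3 in replicate 2, with sums of 8075, 1395 and 3718 bp in that order. Of 4 NK-cell markers, 2 had bases in 6T-CEM and 1 in each Jurkat library (290 to 1875 bp), with NCAM1 and NCR1 at 0 throughout. Erythroid markers summed to 1332 to 2234 bp, with HBA1 at 0 throughout. Whether other cells had a part in any result was not tested.

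The 9 genes ranged widely in the share of their window under peaks. Around STAT5B, STAT5A, STAT3 and CISH, peaks covered 25.7% to 53.4% of the window in 6T-CEM, 9.30% to 26.5% in Jurkat replicate 1 and 19.6% to 36.7% in Jurkat replicate 2. The median over the 14432 genes with covered bases in any list was 2.07%, 1.37% and 1.54% in the same order of libraries. JAK3, SOCS1 and SOCS3 lay between, and varied by library: JAK3 had 12.3% in 6T-CEM, against 0.585% in Jurkat replicate 1 and 7.22% in replicate 2. SOCS1 had 5.61%, 1.77% and 3.70%, and SOCS3 had 1.10%, 2.21% and 6.93%, in the same order. Around JAK1 and JAK2 at most 0.97% was covered in any library. The STAT and CISH loci together held 80.8% of the covered bases of the 7 loci in 6T-CEM, against 90.0% in Jurkat replicate 1 and 83.9% in replicate 2. STAT5A, a transcription factor gene that relays interleukin-2 and interleukin-7 signals, was the densest member, and its covered share lay at percentile 99.9 of the same genes in 6T-CEM, against 99.8 in Jurkat replicate 1 and 99.6 in replicate 2. Its window also takes in peaks over STAT5B and STAT3. Its own body held 19186 of 39809 bp in 6T-CEM, 6088 of 19738 bp in Jurkat replicate 1 and 12084 of 27311 bp in replicate 2. STAT5B, STAT5A, STAT3 and CISH were the 4 densest members in every library, while their order among themselves varied.

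**Figure D1:**
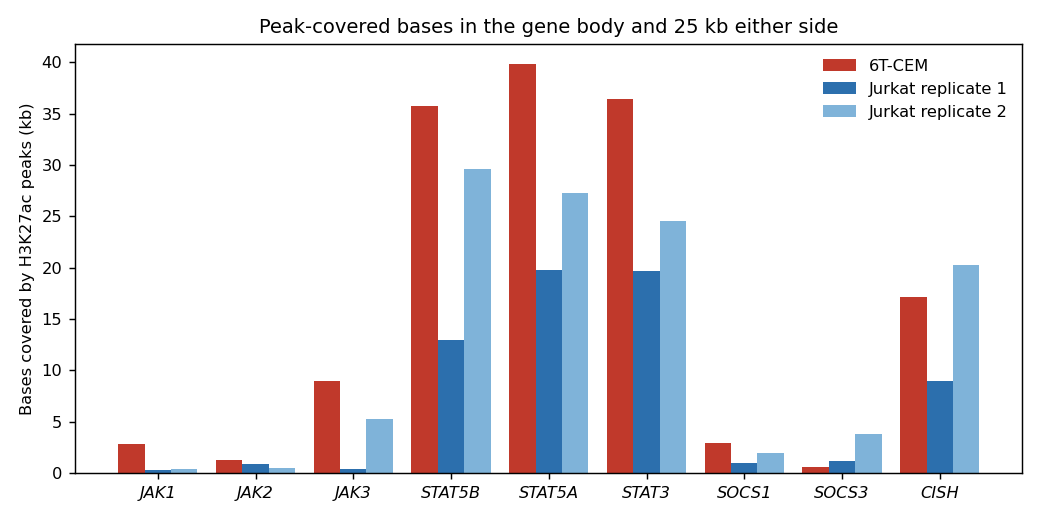
Bases (kb) covered by H3K27ac peaks in the body of each member gene and 25 kb either side, 1 bar per library: 6T-CEM (red), Jurkat replicate 1 (dark blue) and Jurkat replicate 2 (light blue). The STAT genes and CISH stand between 8946 and 39809 bp, while JAK1 and JAK2 reach at most 2773 bp; the STAT bars share peaks.

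To compare the lines, covered bases per gene, plus 500, were compared on the log2 scale, as 6T-CEM minus the mean of the Jurkat libraries, and centred on the median of all 14432 genes, since 6T-CEM has the longest list. A gene was called when this ratio reached 1 in either direction and 6T-CEM lay outside both Jurkat values. Of the 9 members, 2 were called higher in 6T-CEM (JAK1 and JAK3), against 14.9% of all genes, and 1 was called lower (SOCS3), against 7.75% of all genes. Where a library has no covered bases, the ratio depends on the 500 added and is no bound. With so few members these counts do not set them apart from the background. Their median ratio was 0.42, while the median over all genes is 0 by construction. By covered bases without centring, 6T-CEM exceeded both Jurkat libraries at 7 members, against 50.5% of genes, and was below both at 1, against 15.8%. STAT5B, STAT5A and STAT3 count separately in these figures although their windows share peaks, so they are not independent. Over the 7 merged loci the median ratio was 0.34. After centring, JAK2 was at -0.22 against Jurkat replicate 1 and STAT5B at -0.04 against replicate 2, so these were no longer above both. Over all genes the ratio had an SD of 1.02, and the ratio of Jurkat replicate 1 to replicate 2 had an SD of 1.10. Genes thus also differed widely between the Jurkat libraries. The SDs are not like measures, since the first is against a mean of libraries and the second is between single libraries.

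**Figure D2:**
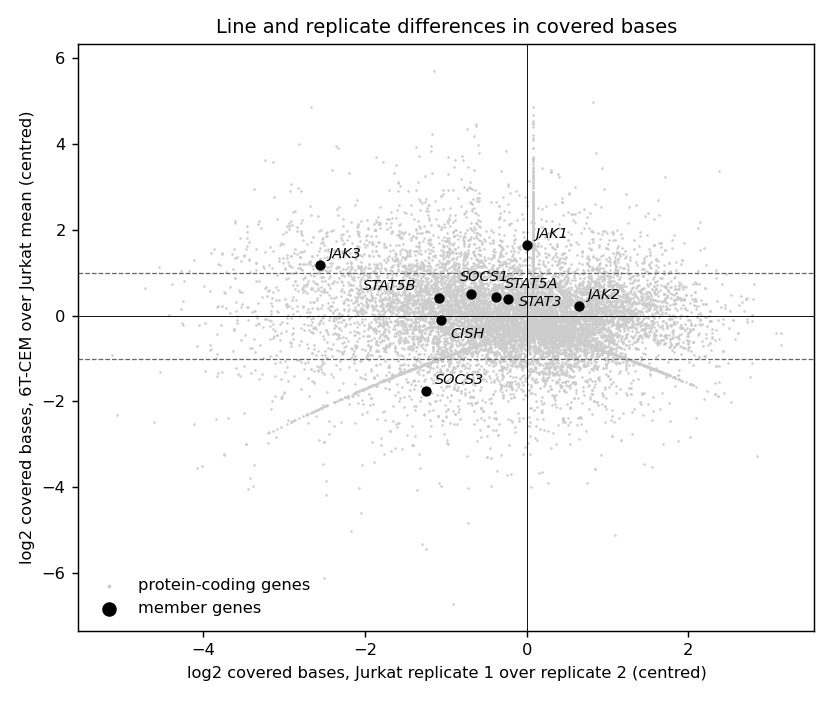
Each point is a protein-coding gene: the y axis is the centred log2 ratio of covered bases, 6T-CEM over the Jurkat mean, and the x axis that of Jurkat replicate 1 over replicate 2, with dashed lines at the call limits of 1 and -1. JAK1 (1.64) lies above the upper line with near-equal Jurkat values that came from different peaks. JAK3 (1.19) lies above it with a Jurkat difference of -2.56, and SOCS3 (-1.76) lies below the lower line.

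JAK1 encodes the kinase shared by interferon, interleukin-6 family and common gamma chain receptors. Its body spans chromosome 1 from 64833229 to 65067746 on the minus strand. Peaks covered 2773 bp in 6T-CEM, 324 bp in Jurkat replicate 1 and 370 bp in Jurkat replicate 2, so 6T-CEM lay above both. The Jurkat values were close in size but came from different peaks that share no base. In the body alone they were 324 bp in replicate 1 and 0 bp in replicate 2. The centred log2 ratio was 1.64 against the Jurkat mean and 0.00 for replicate 1 over replicate 2. All 6 peaks of 6T-CEM lay inside the gene body. They lined up from 64892359 to 64966431 and were narrow, at 335 to 617 bp. The highest of them, at 64925981 to 64926403 with an authors' fold of 8.55, stood at percentile 91.5 of its list and had no Jurkat counterpart. With lists of equal length the ratio was 0.50, and with 2000 bases added it was 0.84, and under neither was JAK1 called.

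The libraries also differed in which JAK1 start carried a peak. RefSeq places an outer start at 65067746 and inner starts at 64966936 and 64966549. 6T-CEM had a 335 bp peak 118 bp from the innermost start, and Jurkat replicate 1 a 324 bp peak 43 bp from it, whereas the nearest peak to the outer start was 101315 bp away in 6T-CEM and 101240 bp away in Jurkat replicate 1. Jurkat replicate 2 showed the reverse, with a 370 bp peak 155 bp from the outer start and none within 100 kb of the inner starts. All of these peaks were among the weakest of their lists, at fold percentiles of 1.51 in 6T-CEM, against 2.48 in Jurkat replicate 1 and 2.08 in replicate 2. The promoters of these starts (GRCh38.p14, RefSeq, 250 bases before to 50 after the start, minus strand) are shown so that the starts can be compared, with CpG dinucleotides in capitals. The outermost and the innermost are printed. The outer window, at chr1:65067697-65067996, holds 15 CpGs, and the innermost window, at chr1:64966500-64966799, holds 43, against a median of 14 over 34789 RefSeq promoters. The window of the other inner start, 64966936, which lay 505 bp from the 6T-CEM peak and 430 bp from that of Jurkat replicate 1, holds 9, so the inner starts were not alike in CpG content.
JAK1 promoter at its outer start: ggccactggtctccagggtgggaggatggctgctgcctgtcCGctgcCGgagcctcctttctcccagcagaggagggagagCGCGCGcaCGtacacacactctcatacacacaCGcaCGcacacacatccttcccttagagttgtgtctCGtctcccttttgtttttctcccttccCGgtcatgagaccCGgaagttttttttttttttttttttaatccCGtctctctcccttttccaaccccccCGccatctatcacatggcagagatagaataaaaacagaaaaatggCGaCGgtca
JAK1 promoter at its innermost start: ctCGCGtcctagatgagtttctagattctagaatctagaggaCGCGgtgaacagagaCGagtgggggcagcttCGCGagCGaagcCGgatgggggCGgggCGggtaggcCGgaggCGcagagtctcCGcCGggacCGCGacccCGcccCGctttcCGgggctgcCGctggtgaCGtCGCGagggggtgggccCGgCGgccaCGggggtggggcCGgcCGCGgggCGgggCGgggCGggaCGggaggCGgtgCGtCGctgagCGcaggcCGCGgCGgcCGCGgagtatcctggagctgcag

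JAK2, the kinase of erythropoietin, thrombopoietin and growth hormone receptors, had the simplest layout. Each library held exactly 1 peak in the whole window, at the cluster of starts on chromosome 9 between 4984390 and 4985272, and none deeper in the gene. The peak ran from 4984459 to 4985686 in 6T-CEM, from 4984560 to 4985475 in Jurkat replicate 1 and from 4984550 to 4985006 in Jurkat replicate 2. Its width was therefore 1228 bp in 6T-CEM, 916 bp in Jurkat replicate 1 and 457 bp in Jurkat replicate 2. Its fold was 5.02 (percentile 57.2 of the list) in 6T-CEM, against 5.99 (66.9) in Jurkat replicate 1 and 2.32 (1.17) in replicate 2. The centred ratio of 0.23 was smaller than the Jurkat replicate difference of 0.64, and JAK2 was not called. No peak lay near the inner start at 5041532 in any library, the closest being 55846 bp away.

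JAK3 encodes the kinase that pairs with the common gamma chain and is largely restricted to blood cells. Peaks within 25 kb of it covered 8999 bp in 6T-CEM, 428 bp in Jurkat replicate 1 and 5288 bp in Jurkat replicate 2. The start at chromosome 19, 17847982, was covered in all libraries, and the peak summits lay 22 bp downstream of it in 6T-CEM, 2 bp upstream in Jurkat replicate 1 and 37 bp upstream in Jurkat replicate 2. The peak there was 3897 bp wide in 6T-CEM, 428 bp in Jurkat replicate 1 and 630 bp in Jurkat replicate 2, and the wide 6T-CEM peak contained both Jurkat ones. The call as higher in 6T-CEM rested on Jurkat replicate 1: the centred ratio was 1.19 against the Jurkat mean, 2.85 against replicate 1 alone and 0.41 against replicate 2 alone. Replicate 1 over replicate 2 was -2.56, larger in size than the 1.19 against the Jurkat mean but not than the 2.85 against replicate 1. JAK3 was also not called within 100 kb, where the ratio was 0.18, or with 2000 bases added. Bodies of other genes in the window held 30.5% of the covered bases in 6T-CEM, none in Jurkat replicate 1 and 57.5% in Jurkat replicate 2. Counting the JAK3 body alone left 3655 bp in 6T-CEM, 186 bp in Jurkat replicate 1 and 1236 bp in Jurkat replicate 2.

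**Figure D3:**
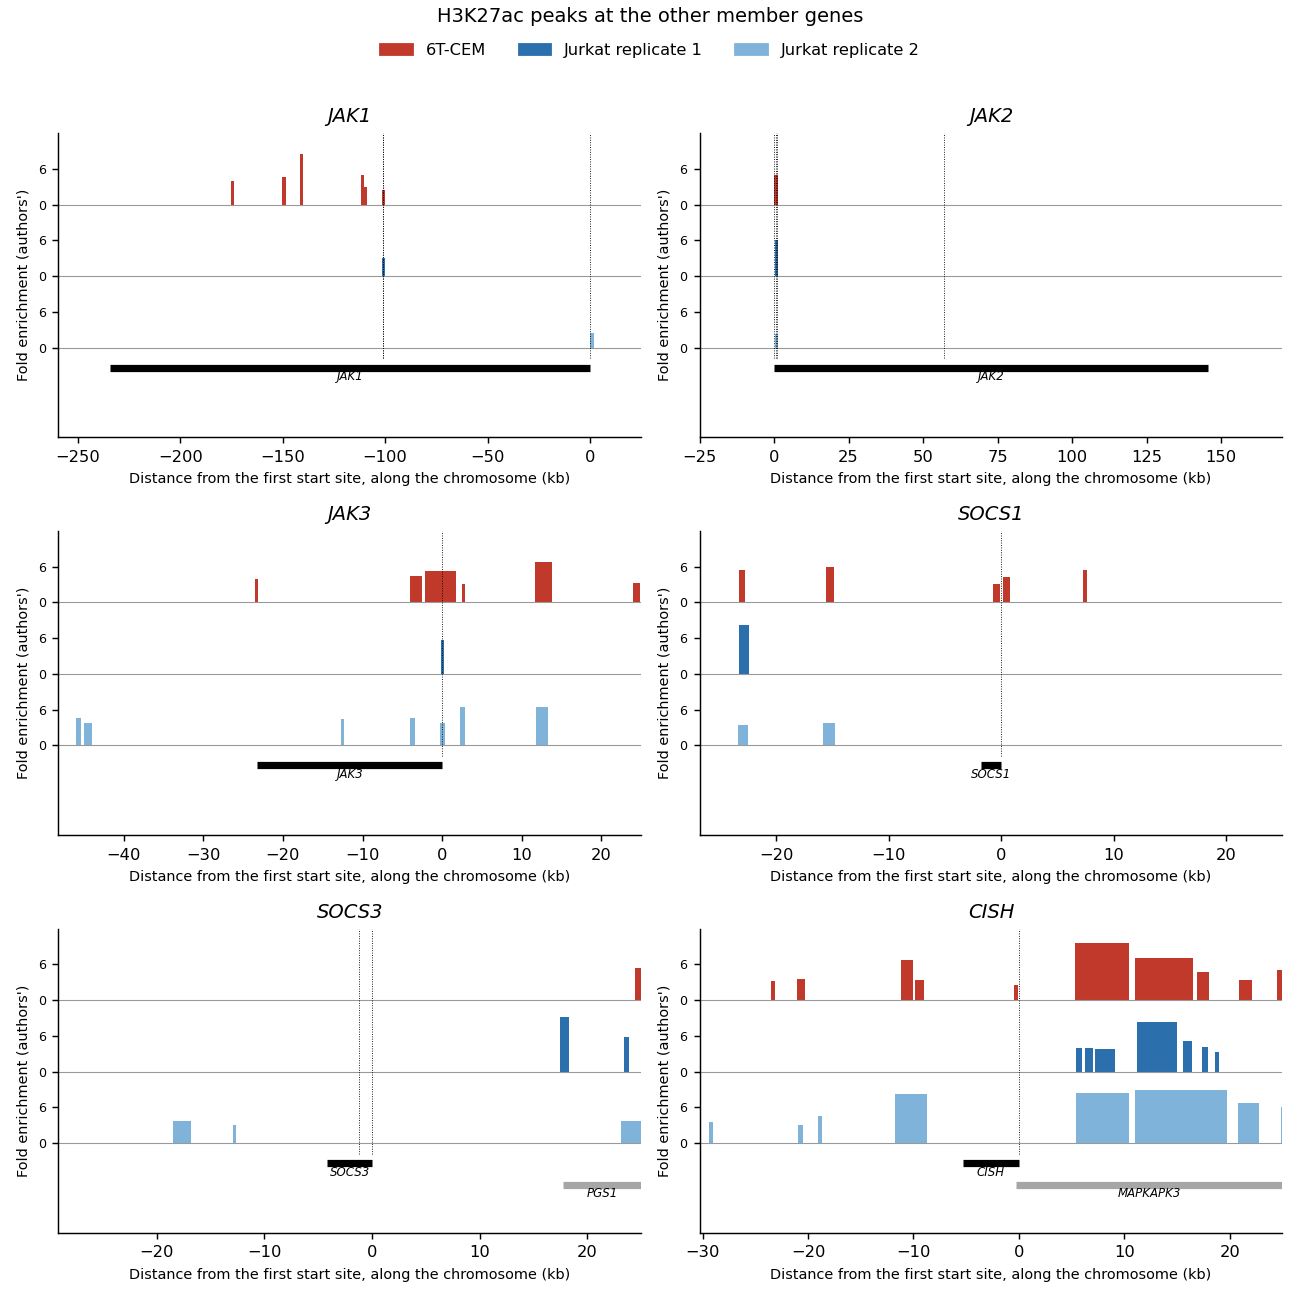
H3K27ac peaks at JAK1, JAK2, JAK3, SOCS1, SOCS3 and CISH, drawn as boxes whose height is the authors' fold enrichment, in rows for 6T-CEM (red), Jurkat replicate 1 (dark blue) and Jurkat replicate 2 (light blue); narrow peaks are drawn at a minimum width. The x axis is the distance (kb) from the gene's first start, dotted lines are annotated starts, black bars are member genes and grey bars PGS1 and MAPKAPK3. JAK2 has 1 peak per library, SOCS3 none over its body, and the widest boxes of the CISH panel stand over MAPKAPK3.

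The STAT locus, chromosome 17 from 42174177 to 42413442, had the most covered bases of the 7 loci in every library. STAT5B and STAT5A encode near-identical proteins downstream of JAK3 and their annotated bodies overlap, and STAT3, the effector of interleukin-6 family cytokines, ends 1381 bp beyond STAT5A. Peaks numbered 34 in 6T-CEM, against 9 in Jurkat replicate 1 and 31 in replicate 2, and covered 52458, 25087 and 41074 bp in the same order. The locus ratio against the Jurkat mean was 0.34, smaller in size than the -0.62 of replicate 1 over replicate 2. Of the 37 merged regions of the locus, 7 held peaks of all libraries, 7 those of 6T-CEM and Jurkat replicate 2, 15 those of 6T-CEM alone and 8 those of Jurkat replicate 2 alone. Every region with a Jurkat replicate 1 peak there also held peaks of the other libraries.

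The core of the locus was a region shared by all libraries, from 42303702 to 42324326, that joins the end of STAT5A to the end of STAT3. Within its 20625 bp, peaks covered 19065 bp in 6T-CEM, 17714 bp in Jurkat replicate 1 and 17628 bp in Jurkat replicate 2. In Jurkat replicate 1 most of it was a single peak of 16727 bp, from 42306843 to 42323569, the widest of all 16159 peaks in that list. In Jurkat replicate 2 an 11971 bp peak there ranked 8 by width of 32097, and in 6T-CEM a 10267 bp peak ranked 46 of 35154. The highest summit inside STAT3 was at nearly the same base in each library: 42320022 in 6T-CEM, against 42319978 in Jurkat replicate 1 and 42319998 in replicate 2, a spread of 44 bp. It lay 6654 to 6698 bp from the 3′ end of STAT3 and over 68 kb from the STAT3 start. The fold of that peak was 17.6 in 6T-CEM (percentile 99.6 of its list), 15.7 in Jurkat replicate 1 (99.8) and 13.0 in Jurkat replicate 2 (99.3).

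**Figure D4:**
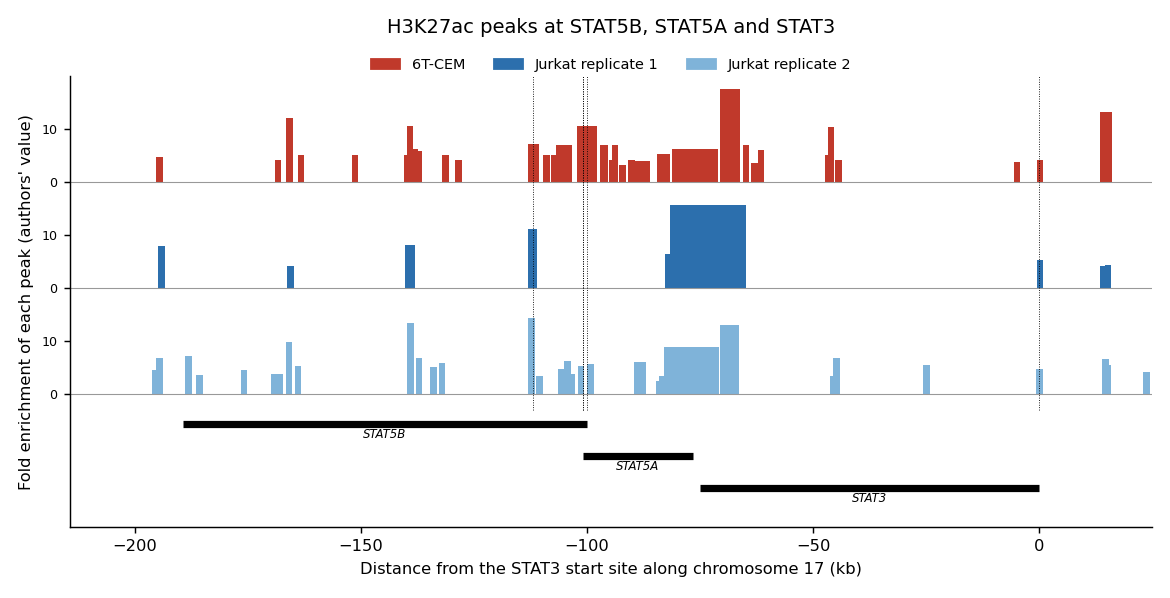
H3K27ac peaks at STAT5B, STAT5A and STAT3 in 6T-CEM (red), Jurkat replicate 1 (dark blue) and Jurkat replicate 2 (light blue). Box width is the peak (narrow peaks have a minimum width) and height the authors' fold enrichment, the x axis is the distance (kb) from the STAT3 start, dotted lines are annotated starts, and black bars are the STAT genes. The highest boxes between STAT5A and STAT3 align in all rows, while the STAT5A start carries peaks in 6T-CEM and Jurkat replicate 2.

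The STAT gene starts differed in how they were marked. The STAT5B start at 42276391 lay under a peak in every library, 2445 bp wide in 6T-CEM, 2024 bp in Jurkat replicate 1 and 1636 bp in Jurkat replicate 2, with summits 313 to 480 bp downstream of it. In Jurkat replicate 2 this was the highest peak of the locus, with a fold of 14.4. The STAT5A start at 42287439 lay under a 4380 bp peak in 6T-CEM and a 1464 bp peak in Jurkat replicate 2, but in Jurkat replicate 1 the nearest peak was 10126 bp away, at the STAT5B start. The STAT3 start at 42388442 was covered in all libraries by peaks of 579 bp in 6T-CEM, 1246 bp in Jurkat replicate 1 and 850 bp in Jurkat replicate 2. Their folds of 4.23 to 5.30 were well under those at the other end of the gene. Within the STAT5B body, all libraries also marked 42221799 to 42222540 and 42247881 to 42250290. From 42281512, inside STAT5B, to 42302424, inside STAT5A, 6T-CEM and Jurkat replicate 2 shared further peaks that Jurkat replicate 1 did not have.

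The promoters of the STAT5 genes are printed because the one marked in every library and the one not marked in Jurkat replicate 1 differ in CpG content (RefSeq, GRCh38.p14, CpGs in capitals). That of STAT5B, at chr17:42276342-42276641 on the minus strand, holds 55 CpGs, and that of the first STAT5A start, at chr17:42287189-42287488 on the plus strand, holds 3. The third STAT5A start, at 42288498, holds 37 in its window and was likewise covered in 6T-CEM and Jurkat replicate 2 but not in Jurkat replicate 1.
STAT5B promoter: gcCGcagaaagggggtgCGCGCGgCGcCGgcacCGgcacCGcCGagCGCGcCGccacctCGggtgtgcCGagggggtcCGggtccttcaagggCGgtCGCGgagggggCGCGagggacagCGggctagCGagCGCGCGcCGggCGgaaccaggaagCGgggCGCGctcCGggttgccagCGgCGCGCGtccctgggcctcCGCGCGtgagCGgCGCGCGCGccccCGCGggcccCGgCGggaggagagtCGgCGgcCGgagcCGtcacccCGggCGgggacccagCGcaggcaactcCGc
STAT5A promoter at its first start: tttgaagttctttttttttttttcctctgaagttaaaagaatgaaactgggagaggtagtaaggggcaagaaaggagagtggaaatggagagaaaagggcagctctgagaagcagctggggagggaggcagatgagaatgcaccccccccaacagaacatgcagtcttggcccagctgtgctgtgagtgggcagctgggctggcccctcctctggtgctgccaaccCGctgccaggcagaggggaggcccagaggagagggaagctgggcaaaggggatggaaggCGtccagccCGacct

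The inhibitor genes are short, and peaks covered at most 617 bp of their own bodies in any library. SOCS1, which encodes a JAK inhibitor induced by interferons and common gamma chain cytokines, lies on chromosome 16 from 11254417 to 11256204 on the minus strand. Its window had 2903 bp covered in 6T-CEM, 919 bp in Jurkat replicate 1 and 1914 bp in Jurkat replicate 2. The ratio of 0.52 was not called, and that of replicate 1 over replicate 2 was -0.69. In 6T-CEM a 617 bp peak lay inside the gene and ended 129 bp short of its start at 11256204. A 602 bp peak lay just before the start, at 11256352 to 11256953. Neither Jurkat library had a peak at the gene: the nearest ended 22375 bp from the start in replicate 1 and 14782 bp from it in replicate 2. A site downstream of the gene, at 11232822 to 11233829, was marked in all libraries, with summits 77 to 233 bp from that of 6T-CEM. It was the highest peak of the window in Jurkat replicate 1 (fold 8.24), whereas 6T-CEM (5.89) and Jurkat replicate 2 (3.70) had theirs at 11240373 to 11241422. Within 10 kb of the body SOCS1 had 1586 bp in 6T-CEM, whereas neither Jurkat list had any, and at that window it was called higher in 6T-CEM with a ratio of 1.79.

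SOCS3 encodes the inhibitor of interleukin-6 family signalling and lies on chromosome 17 from 78356778 to 78360925. It was the only member without a peak over its body in any library, and no peak lay within 1 kb of its starts. The window held 593 bp in 6T-CEM, 1197 bp in Jurkat replicate 1 and 3751 bp in Jurkat replicate 2, for a ratio of -1.76 and a call as lower in 6T-CEM. These bases lay away from SOCS3. PGS1, a phospholipid synthesis gene that begins 17.7 kb away, held all 593 bp of 6T-CEM, 961 bp of Jurkat replicate 1 and 1874 bp of Jurkat replicate 2. The window's edge cut a 1473 bp peak in 6T-CEM, of which 593 bp fell inside, and a 2291 bp peak in Jurkat replicate 2, while the next Jurkat replicate 1 peak lay 146 bp outside it. Within 10 kb of SOCS3 there were 0 bp in 6T-CEM, 0 bp in Jurkat replicate 1 and 290 bp in Jurkat replicate 2, and within 100 kb the ratio was -0.07. SOCS3 was not called at either window, nor with lists of equal length, where the ratio was -0.88. A Jurkat replicate 1 peak at 78378413 to 78379177, with a fold of 9.13 (percentile 93.2), lay at the start of PGS1 and had no counterpart in the other lists. By Euclidean distance over the log2 values of the 3 libraries, the genes closest to SOCS3 were FSTL4 (distance 0.26), ODF2 (0.28) and RBM38 (0.32).

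CISH encodes a feedback inhibitor that STAT5 induces in lymphocytes. Its body, on chromosome 3 from 50606489 to 50611774, carried a single weak peak in 6T-CEM, at 50611269 to 50611714 with a fold of 2.57 (percentile 3.33), and none in either Jurkat library. That peak ended 60 bp short of the start at 50611774, and the nearest Jurkat peaks were 5379 bp away in replicate 1 and 5390 bp in replicate 2. The window as a whole was dense, with 17097 bp in 6T-CEM, 8946 bp in Jurkat replicate 1 and 20237 bp in Jurkat replicate 2. The ratio was -0.09, and that of replicate 1 over replicate 2 was -1.06. Most of these bases lay over MAPKAPK3, a stress-activated kinase gene whose annotated body overlaps that of CISH. MAPKAPK3 held 80.1% of the covered bases in 6T-CEM, against 100% in Jurkat replicate 1 and 78.6% in replicate 2. All libraries shared the regions 50617120 to 50622253 and 50622768 to 50631470 there, and Jurkat replicate 2 covered the second with an 8657 bp peak, rank 32 by width in its list. The highest folds of the window were also there, at 9.58 in 6T-CEM, 8.33 for Jurkat replicate 1 and 8.98 for Jurkat replicate 2. 6T-CEM and Jurkat replicate 2 further shared 50600070 to 50603098 beyond the other end of CISH, where Jurkat replicate 1 had no peak.

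The promoters of the inhibitor genes are printed because STAT proteins are known to act on them, with TTCNNNGAA in capitals (RefSeq, GRCh38.p14, 250 bases before to 50 after the start, all on the minus strand). The motif reads the same on both strands, and matches were allowed to overlap. The CISH window, at chr3:50611725-50612024, holds 4 matches, TTCCTGGAA, TTCTTGGAA, TTCTAGGAA and TTCCGGGAA, which begin 241, 230, 129 and 112 bases before the start. Of 34789 RefSeq promoters of this length, 7.65% hold at least 1 match, and 7 promoters of 6 genes, or 0.020%, hold 4. The others are BCL6, ZNF112, ZNF225, ZNF225-AS1 and LOC124907892. The SOCS1 window, at chr16:11256155-11256454, and the SOCS3 window at its outer start, at chr17:78360876-78361175, hold none, nor did any window of the JAK and STAT members. A match or its absence describes the letters of these windows alone. No peak of any library overlapped the CISH window, but the weak 6T-CEM peak in the gene ended just short of it, at 50611714. In 6T-CEM 103 bp of the SOCS1 window were covered.
CISH promoter: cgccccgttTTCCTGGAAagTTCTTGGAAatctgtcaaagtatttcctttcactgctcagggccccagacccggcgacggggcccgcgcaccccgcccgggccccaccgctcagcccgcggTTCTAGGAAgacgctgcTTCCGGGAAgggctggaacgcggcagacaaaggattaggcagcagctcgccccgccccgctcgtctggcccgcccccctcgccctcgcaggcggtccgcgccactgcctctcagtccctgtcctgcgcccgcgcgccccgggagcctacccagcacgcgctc
SOCS1 promoter: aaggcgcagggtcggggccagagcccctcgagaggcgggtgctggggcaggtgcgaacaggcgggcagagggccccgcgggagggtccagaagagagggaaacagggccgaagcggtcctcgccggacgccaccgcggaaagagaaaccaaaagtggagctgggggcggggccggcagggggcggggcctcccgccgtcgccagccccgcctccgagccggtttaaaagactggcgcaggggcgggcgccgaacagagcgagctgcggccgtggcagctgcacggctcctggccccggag
SOCS3 promoter: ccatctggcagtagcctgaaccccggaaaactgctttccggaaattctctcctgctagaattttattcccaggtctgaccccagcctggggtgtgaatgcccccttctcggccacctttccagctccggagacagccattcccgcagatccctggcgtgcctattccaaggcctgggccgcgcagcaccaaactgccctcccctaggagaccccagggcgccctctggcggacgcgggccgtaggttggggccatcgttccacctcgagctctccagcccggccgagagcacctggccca

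Across the members, a peak within 1 kb of an annotated start was found at 8 of 9 genes in 6T-CEM, against 5 in Jurkat replicate 1 and 6 in replicate 2. Over the 15812 protein-coding genes with starts in the RefSeq table, 42.9%, 41.0% and 34.6% had such a peak in the same order of libraries. JAK1, JAK2, JAK3, STAT5B and STAT3 were marked in all libraries (5 of 9, against 28.1% of genes), although at JAK1 this was not the same start. SOCS1 and CISH were marked in 6T-CEM and in neither Jurkat library, as were 6.19% of all genes. No member was marked in both Jurkat libraries and not in 6T-CEM, as were 2.52% of all genes. With all lists cut to an equal length of 16159, keeping the peaks with the best −log10 q, neither SOCS1 nor CISH kept a marked start in 6T-CEM, and the counts became 4 in 6T-CEM, against 5 in Jurkat replicate 1 and 4 in replicate 2. The shares of all genes became 28.2%, 41.0% and 24.7% in the same order, so the background fell in 6T-CEM as well.

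At the level of regions, the peaks at the 7 loci merged into 73 regions. Of these, 14 held peaks of all libraries, or 19.2% (95% Clopper-Pearson interval 10.9 to 30.1, counting error only), against 17.4% of the 49528 regions of the genome. 6T-CEM alone held 27 regions, or 37.0% (26.0 to 49.1), against 32.2% in the genome. No region held peaks of both Jurkat libraries without 6T-CEM, which over 73 regions allows a share of up to 4.93% (upper bound of the same interval), against 3.20% in the genome. The genome's shares thus lay inside these intervals. The intervals treat regions as independent, although 37 of the 73 lie at the STAT locus. By bases, 28.6% of all covered bases at the loci were common to the 3 libraries, against 16.3% in the genome, with 39.4% at CISH, 36.4% at JAK2, 33.5% at the STAT locus, 15.9% at SOCS1, 3.80% at JAK3 and none at JAK1 or SOCS3. In the 14 regions shared by all libraries, the highest summit of 6T-CEM lay a median of 218.5 bp from that of Jurkat replicate 1 (24 to 3248) and 121 bp from that of Jurkat replicate 2 (21 to 3479).

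**Figure D5:**
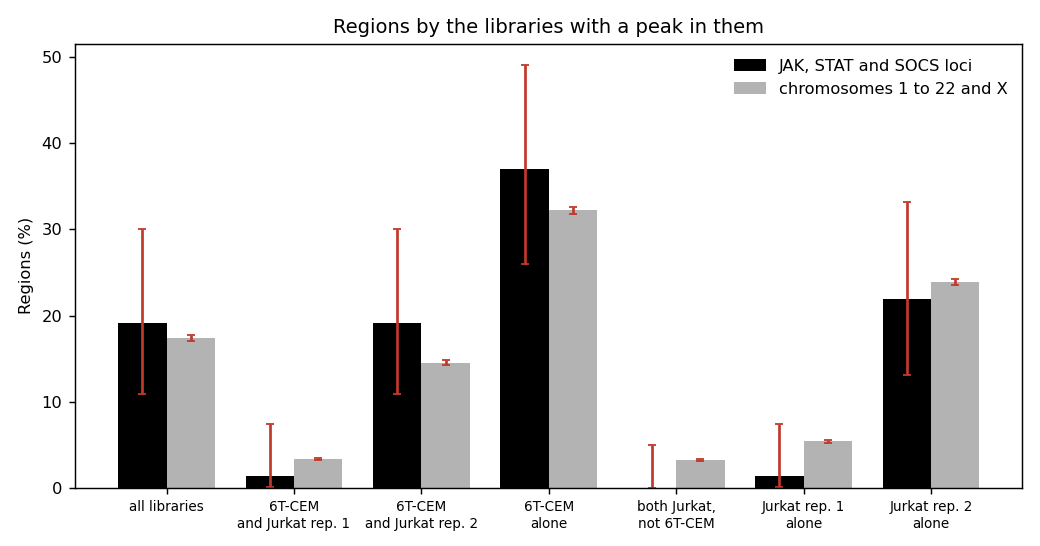
Percent of merged peak regions in each class of library sharing, at the 7 JAK, STAT and SOCS loci (black, 73 regions) and on chromosomes 1 to 22 and X (grey, 49528 regions). Bars of error are 95% Clopper-Pearson intervals for counting error only. The intervals at the loci contain the genome's share for every class drawn.

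Peaks were stitched at gaps of up to 12.5 kb and ranked by the sum of width times fold. The stitched region that holds the highest STAT3 summit ranked high in each list. Its rank was 57 of 13075 stitched regions in 6T-CEM (51.4 kb, 17 peaks), 8 of 8853 in Jurkat replicate 1 (17.9 kb, 2 peaks) and 57 of 11190 in Jurkat replicate 2 (46.7 kb, 12 peaks). It took in the STAT5B and STAT5A starts in 6T-CEM and Jurkat replicate 2, but not in Jurkat replicate 1, so the ranks are of regions unlike in extent. At the CISH locus the stitched regions were unlike in extent. That of 6T-CEM ran from 50588306 to 50652484 across CISH and MAPKAPK3 (rank 236), whereas those over MAPKAPK3 in Jurkat began beyond CISH, at 50617153 in replicate 1 (rank 262) and at 50617164 in replicate 2 (rank 99). No stitched region at JAK1, JAK2, SOCS1 or SOCS3 ranked above 1993 in any list.

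Of 10 other JAK, STAT and SOCS genes 1 was called higher in 6T-CEM and 0 lower, beside 14.9% and 7.75% of all genes, and all had covered bases in at least 1 list. SOCS2, a feedback inhibitor of growth hormone signalling, had 1224 bp in 6T-CEM, whereas neither Jurkat list had any, for a ratio of 1.47. TYK2, the remaining JAK kinase, had 5248 bp in 6T-CEM, 6860 bp in Jurkat replicate 1 and 6575 bp in Jurkat replicate 2, and its start was marked in both Jurkat libraries but not in 6T-CEM. STAT6, the effector of interleukin-4, had 5142, 4896 and 7489 bp in the same order of libraries. STAT4, which serves interleukin-12, had 2208, 2119 and 1164 bp. The list's median ratio was 0.20, beside 0 over all genes.

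None of the 10 phosphatase, adaptor and PIAS genes was called, beside 14.9% of all genes called higher and 7.75% lower, and their median ratio was -0.16. PTPN2, which encodes a phosphatase that acts on JAK1 and JAK3, had 19184 bp in 6T-CEM, 13313 bp in Jurkat replicate 1 and 13408 bp in Jurkat replicate 2. Of 18 cytokine receptor genes 2 were called higher, 2 lower, and 1, the interleukin-2 receptor gene IL2RA, had no covered bases in any list. These counts stand beside the same 14.9% and 7.75% of all genes, and the list's median ratio was -0.35. IL21R, which encodes the interleukin-21 receptor, had 11654 bp in 6T-CEM, 0 bp in Jurkat replicate 1 and 3612 bp in Jurkat replicate 2 (ratio 2.09). Its ratio of Jurkat replicate 1 over replicate 2 was -2.96, larger in size than the 2.09 against the Jurkat mean. CRLF2, the thymic stromal lymphopoietin receptor gene, had 870 bp in 6T-CEM, whereas neither Jurkat list had any (ratio 1.14). It lies in the region that X shares with Y, so reads of the copies cannot be told apart. IFNAR2, an interferon receptor gene, had 5051 bp in 6T-CEM, 11943 bp in Jurkat replicate 1 and 13698 bp in Jurkat replicate 2 (ratio -1.58). Replicate 1 over replicate 2 was -0.11 at this gene. Its window overlaps that of IL10RB, which lies 703 bp away, so peaks are shared. IL10RB had 6848, 8794 and 11407 bp in the same order of libraries and was not called (ratio -0.84). IL6ST, which encodes the shared receptor chain of the interleukin-6 family, had 0 bp in 6T-CEM, 324 bp in Jurkat replicate 1 and 1235 bp in Jurkat replicate 2 (ratio -1.67). IL7R, the interleukin-7 receptor gene, had 1717 bp in 6T-CEM, 3697 bp in Jurkat replicate 1 and 0 bp in Jurkat replicate 2, and the common gamma chain gene IL2RG had 17293, 7502 and 13086 bp, with its start marked in all libraries.

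Of 15 textbook STAT target genes 1 was called higher and 2 lower in 6T-CEM, beside 14.9% and 7.75% of all genes, with a median ratio of 0.06. With lists of this size none of these counts is read as a result about its list. The growth regulator gene MYC was higher, with 4919 bp in 6T-CEM, 472 bp in Jurkat replicate 1 and 1487 bp in Jurkat replicate 2 (ratio 1.56). The survival kinase gene PIM2 was lower, with 0 bp in 6T-CEM, 1495 bp in Jurkat replicate 1 and 1343 bp in Jurkat replicate 2 (ratio -2.25). So was FOXP3, the regulatory T-cell factor gene, with 0, 1578 and 1007 bp in the same order (ratio -2.15). Replicate 1 over replicate 2 was -0.95 at MYC, 0.19 at PIM2 and 0.54 at FOXP3. PIM1, a related kinase gene, had 518, 0 and 393 bp, and BCL6 had no covered bases in any list.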

How the data were processed

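H3K27ac peak lists of 6T-CEM (1 library) and Jurkat (2 libraries) were analysed. The submitters' processing notes name MACS2 2.2.7, Bowtie2 2.2.5 and build hg38, with no options. The design text names CUT&Tag, whereas the labels' protocols describe sonicated nuclei. Each deposited list is that of 1 library and holds, per peak, the authors' fold enrichment (a ratio), −log10 p-value and −log10 q-value, a score and the summit offset. The lowest deposited −log10 q was between 2.00 and 2.01 in every list. Folds were used only to describe and rank peaks within a list. The lists hold no read counts, so depth is unknown, and intervals cover counting error only.

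Chromosome Y and unplaced contigs were left aside, which removed 538 to 1208 peaks per list. Gene bodies and promoters came from RefSeq (GRCh38.p14, the same build), and all 9 members matched. Start sites were read from the promoter table, which holds 250 bases before and 50 after each start, and exons and introns were not annotated. Peaks sharing at least 1 base were merged into regions. No test between the lines was possible with a single 6T-CEM library, so differences are described beside the values of each Jurkat library. Alternatives were −log10 q of 5 or more, equal list length, windows of 0, 10 and 100 kb, each Jurkat library left out, 2000 bases added, width times fold, and overlaps of 50% or within 1 kb. The members and lists were chosen with earlier results of these data known. Named beyond the members were listed genes that were called, that had no bases in any list, or that were fixed by name, and a few of these results are not reported here. Covered bases, region classes and calls were tested on simulated data. Scripts ran in Python 3.11.15 with pandas 2.3.3, NumPy 2.4.6, matplotlib 3.10.9 and SciPy 1.17.1.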

Additional observations from a re-analysis of the deposited data

How the results depend on the processing

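The median ratio of the members was 0.42 and stayed positive under the 9 alternatives tried, from 0.037 with width times fold to 0.72 in the body alone. The number called higher in 6T-CEM, 2, was 3 within 10 kb (SOCS1 added), 1 at equal list length (JAK3), 1 within 100 kb (JAK1) and 0 with 2000 bases added, and ranged from 1 to 2 with either Jurkat library left out (1 without replicate 1, when JAK3 was lost). The number called lower, 1, was 0 at equal list length, 0 within 10 kb, 0 within the body alone, 0 within 100 kb and 0 with 2000 bases added, and stayed at 1 with either Jurkat library left out. The share of regions with peaks of all libraries, 19.2%, was 38.7% at equal list length, and ranged from 25.8% to 38.7% with a Jurkat library left out, where fewer libraries had to share a region. Of 81 single-gene values, 63 moved by less than the Jurkat replicate spread, 18 by more, and 0 changed sign where the gene was called. Only 4 members, JAK1, JAK3, SOCS1 and SOCS3, kept the same sign under every alternative. The spread differs by gene, so these counts do not measure stability alike. JAK3, with a Jurkat SD of 1.87, never counted as moved, although its ratio ranged from 0.18 to 2.85. JAK1, with an SD of 0.06, moved under 7 alternatives. JAK1 ranged from 0.50 to 2.60, SOCS3 from -2.26 to -0.07 and CISH from -0.54 to 0.72. The cause of these shifts was not tested. The number of members with a start marked in 6T-CEM alone, 2, a result whose alternatives were chosen after seeing the data, was 1 at −log10 q of 5 or more, 0 at equal list length, and with a Jurkat library left out it was 2 (replicate 1) or 3 (replicate 2). Depth is unknown, so peaks present in 1 list may be below the detection limit of another. No paired analysis was possible because 6T-CEM has a single library and its label carries no replicate number.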
